A study of Mus musculus with 6 samples.

Results

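The nuclear genes of the mitochondrial respiratory chain and ATP synthase were examined by RNA-seq in mouse ILC1s, 1 of the groups of innate lymphocytes that lack rearranged antigen receptors. Members were the rows of the deposited table whose symbol begins with Nduf followed by a, b, c, s or v and a number, is Sdha, Sdhb, Sdhc or Sdhd, begins with Uqcr, begins with Cox4 to Cox8 followed by a, b or c, or begins with Atp5. The 5 matching rows marked as pseudogenes were left out. This gave 79 of 24628 genes, of which 36 belong by symbol to complex I, 4 to complex II, 8 to complex III, 14 to complex IV and 17 to complex V. The symbol rule does not reach Ndufab1, Cyc1, Cox4i1 or Cox4i2. It would match Cox8c and Ndufa4l2, but the deposited table has no row under these symbols.

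The study set conditional knockout (cKO) ILC1s against ILC1s that the series text calls wild type. The 3 libraries of the first group are titled treatment and their columns carry the names Ncr1 and Rora. The 3 libraries of the second are titled Rorafl/fl, that is with both Rora alleles floxed, and are called floxed here. The treatment libraries were taken as cKO because no other group remains in the series. Rora encodes RORα, a nuclear receptor that binds DNA, and Ncr1 encodes the receptor NKp46 of natural killer (NK) cells and ILC1s. Not given in the sources used here: Cre driver, deleted part of Rora, sort, age, sex and number of mice. Nothing in the labels says that replicates came from separate mice, and a p-value therefore measures the spread between these libraries alone, which may be technical.

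The respiratory chain passes electrons from NADH (through complex I) and from succinate (through complex II) to ubiquinone, then through complex III and cytochrome c to complex IV, which reduces oxygen. Complexes I, III and IV pump protons across the inner mitochondrial membrane, and complex V, the ATP synthase, lets them flow back and makes ATP. All subunits of complex II are nuclear, whereas the other complexes also hold subunits encoded by mitochondrial DNA. Lymphocytes at rest draw much of their ATP from this pathway. Several complex IV subunits exist as paralogues with tissue-restricted expression, such as the heart and skeletal muscle forms Cox6a2, Cox7a1 and Cox8b and the testis form Cox6b2.

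Rora was at 5.69, 6.29 and 6.24 RPKM in cKO libraries, against 6.92, 7.41 and 7.91 RPKM in floxed libraries. RPKM divides the reads of a gene by its length and by the reads of the library. The means were 6.07 ± 0.334 and 7.42 ± 0.493 RPKM (SD, n = 3 each), and the groups did not overlap, but the difference of -0.25 in log2(RPKM + 1) did not pass the test (adjusted p = 0.242, limma with Benjamini-Hochberg adjustment over all tested genes). It passed in limma's voom on recovered whole reads (-0.29, adjusted p = 0.0242), with a range of 0.0242 to 0.465 over 14 alternatives. Ncr1 was at 246 ± 12.5 RPKM in cKO and 372 ± 10.8 RPKM in floxed libraries (adjusted p = 0.00446). The defining genes Tbx21 (39.9 ± 0.420 against 46.7 ± 4.60 RPKM) and Klrb1c (99.4 ± 4.01 against 103 ± 5.09 RPKM) were present in both groups. Library depth, inferred from the values, was 21111333 to 22440170 reads in cKO and 20152146 to 21711523 reads in floxed libraries. Of 12731 genes tested, 83 were higher and 85 lower in cKO. The summed level of 8 NK markers was 424 to 445 RPKM in cKO and 301 to 308 RPKM in floxed libraries. That of 8 ILC1 markers was 255 to 261 and 294 to 305 RPKM. The members of each sum did not move as 1. Of the NK markers, 4 were higher in cKO in limma (Eomes, Gzma, Klra8 and Klra4) and 4 did not pass. Of the ILC1 markers, 3 were lower (Il2ra, Cxcr6 and Il7r) and 4 did not pass. The other, Cd69, was higher (32.8 ± 0.437 against 21.4 ± 1.11 RPKM). B cell markers summed to 105 to 125 RPKM in cKO and 128 to 138 RPKM in floxed libraries, T cell markers to 60.9 to 65.7 and 68.5 to 71.3 RPKM, and macrophage and dendritic cell markers to 112 to 122 and 123 to 129 RPKM. Within the B cell sum, Ighm was at 76.2 ± 5.60 RPKM in cKO and 65.6 ± 2.18 RPKM in floxed libraries (adjusted p = 0.208, limma), while Cd74 (32.0 ± 4.61 and 54.1 ± 3.93 RPKM, adjusted p = 0.0305) and Cd22 (6.49 ± 0.649 and 9.93 ± 0.285 RPKM, adjusted p = 0.0353) were lower in cKO. Markers of ILC2s and ILC3s summed to 18.9 to 22.7 RPKM in cKO and 16.9 to 18.6 RPKM in floxed libraries. Most of this sum was Gata3 (17.1 ± 2.08 and 15.7 ± 0.724 RPKM, adjusted p = 0.662, limma). Neutrophil markers stayed at or below 1.17 RPKM in cKO and 1.82 RPKM in floxed libraries in sum, and erythroid and liver markers at or below 3.36 and 7.43 RPKM. No marker found in the table was at 0 in all 6 libraries. Of 23 tested genes in a list of immediate-early genes and the heat-shock genes Hspa1a, Hspa1b and Dnajb1, 17 were higher and none lower in cKO. The part of these shifts in the respiratory chain values below was not tested.

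Most respiratory chain genes were expressed above the typical tested gene. The median of their mean levels was 17.5 RPKM, against 7.02 RPKM over all tested genes. Atp5h, Uqcrb, Atp5a1 and Atp5b, 4 of the 79, were over 100 RPKM, 53 lay between 10 and 100 RPKM, and 22 were under 10 RPKM. Together the members took 0.483 to 0.535% of the reads of a library, and 12 were among the 1000 genes with the highest mean level. The 3 members that did not reach 1 RPKM in at least 3 libraries, and so were not tested, were the muscle forms Cox7a1 and Cox8b and the ATP synthase c subunit gene Atp5g1. Levels per length depend on the length assigned to a gene, and the deposited length was a median of 1.37 times that of the gene's principal transcript in GENCODE M21. The ratio was largest for Atp5l, which encodes the membrane subunit g of the ATP synthase, at 11.8. With the principal transcript's length, Atp5l moved to rank 12 among the 79 members, against rank 60 with the deposited length, while Atp5h was first with both. Of the 50-base stretches of the Atp5l transcript, 68.5% also occur in other genes, which limits its rank with either length. The ratio of 1 gene's RPKM between groups does not depend on the length assigned, but the filter at 1 RPKM and the difference of log2(RPKM + 1) do, most of all for low genes.

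**Figure D1:**
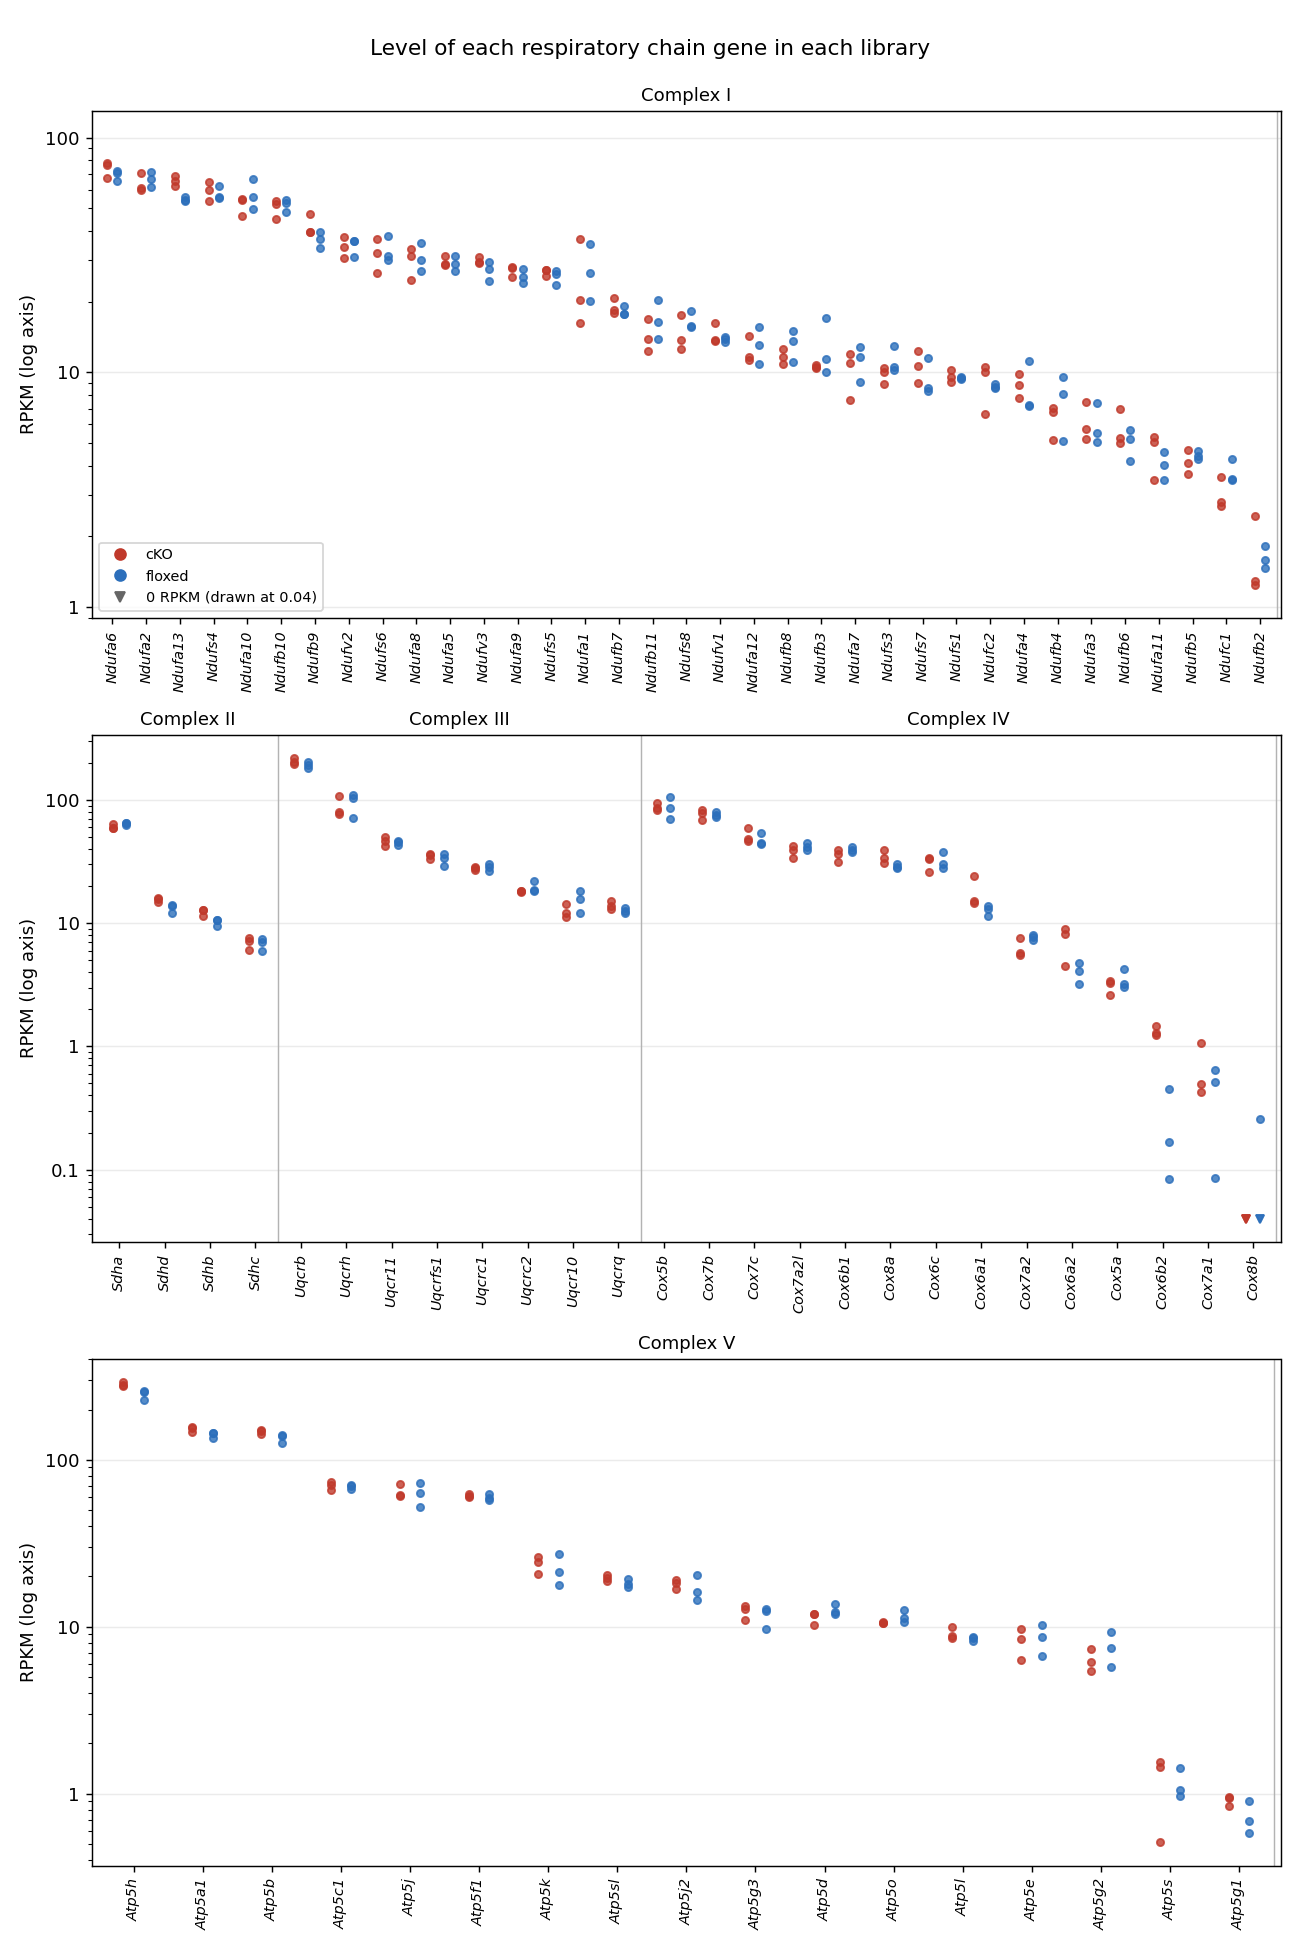
RPKM (log axis) of 78 of the 79 members in every library, grouped by complex and ordered by mean level, with cKO points left of floxed points and triangles for values of 0. Levels span from Atp5h above 200 RPKM to Cox8b, read in 1 floxed library, and for most genes the points of the groups lie among each other.

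Promoters of these genes are a textbook case of control by the factors NRF1, GABP (an ETS factor) and YY1, and the stretch before the RefSeq start is shown for 3 genes described below. Sdhb is shown as an example of a member that holds both an NRF1 core and the general nuclear receptor half-site AGGTCA, here without a preceding T. Ndufa11, Atp5k and Atp5l also hold both in the 300-base window described below. Cox6b2 is shown because it had the largest difference between the groups, with its paralogue Cox6b1 beside it. Each line gives the 150 bases before the RefSeq start in GRCm38.p6, 5′ to 3′ on the gene's strand, with motif matches in capitals. The stretches are chr4:140961121-140961270 (plus strand) for Sdhb, chr7:4753095-4753244 (minus strand) for Cox6b2 and chr7:30626115-30626264 (minus strand) for Cox6b1.
Sdhb: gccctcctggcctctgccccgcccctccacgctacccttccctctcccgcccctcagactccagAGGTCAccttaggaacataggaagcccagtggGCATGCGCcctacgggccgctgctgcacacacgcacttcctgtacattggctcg
Cox6b2: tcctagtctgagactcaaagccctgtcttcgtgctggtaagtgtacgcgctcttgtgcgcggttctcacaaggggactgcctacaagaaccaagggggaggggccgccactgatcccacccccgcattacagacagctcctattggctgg
Cox6b1: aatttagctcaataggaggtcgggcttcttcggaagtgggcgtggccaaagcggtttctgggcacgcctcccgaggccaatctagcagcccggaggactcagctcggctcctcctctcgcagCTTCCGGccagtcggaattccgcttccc
The capitals are AGGTCA and GCATGCGC in Sdhb and, in Cox6b1, the ETS motif CCGGAAG read on the other strand. The longer window of Sdhb also holds the ETS motif, outside the printed stretch. None of the 6 motifs searched was found in the Cox6b2 stretch. The deposited table starts Sdhb at 140961203 and Cox6b1 at 30626151, both inside the printed stretches.

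Across the 68 members with a RefSeq promoter window of 300 bases (250 before the start and 50 after it), both strands were searched for 6 motifs. The NRF1 core GCATGCGC was in 14.7% of members, against 6.56% of 8184 tested genes and 3.05% of all 27025 genes with a window. The YY1 motif AAGATGGC was in 16.2% of members, against 6.13% of tested genes and 3.19% of all genes. For the ETS motif CCGGAAG the shares were 23.5%, 23.1% and 9.93%, in the same order. The E-box CACGTG was in 10.3% of members, against 12.0% of tested genes and 8.09% of all genes. The half-site AGGTCA was in 22.1% of members, against 14.7% of tested genes and 18.1% of all genes. Its form with a preceding T, TAGGTCA, which always overlaps AGGTCA, was in 3 members, or 4.41%, against 2.19% of tested genes and 2.97% of all genes. A match describes the letters of the window and does not show binding.

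No respiratory chain gene passed the test between cKO and floxed ILC1s, in either direction. Of the 76 tested members, 0 had an adjusted p under 0.05 in limma, where 0.652% of all tested genes were called higher and 0.668% lower. At an unadjusted p under 0.05, 8 members were higher and 0 lower, while the shares over all tested genes were 5.55% higher and 8.60% lower. On recovered whole reads, limma's voom called 3 members higher (Ndufa13, Cox6b2 and Atp5h) and 0 lower, where it called 1.78% of all tested genes higher and 2.41% lower. Cox6b2 reached 1 RPKM in the 3 cKO libraries alone, so it entered the test only through the group where it is high, and its p is no independent sign of a difference. Without it, 7 of 75 members were higher at an unadjusted p under 0.05, 2 were called higher by voom, and the smallest adjusted p in limma was 0.0701, for Ndufa13.

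The differences were small. The median log2 difference (a cKO mean less the floxed mean, of log2(RPKM + 1)) was 0.027 over the 76 members, against -0.027 over all tested genes, and the members ranged from -0.27 for Cox7a2 to 0.92 for Cox6b2. Of the members, 43 had a difference above 0 and 33 below, or 56.6% above, where the share above 0 was 42.7% of all tested genes. For 58 of the 76 the whole 95% interval lay between -0.5 and 0.5. In bulk RNA, fewer cells of a type and less RNA per cell cannot be told apart, so a level here is an average over whatever cells entered each library.

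In 9 members every cKO value lay above every floxed value, and in 0 members below, or 11.8% of the 76, where groups lay apart in this way for 7.61% of all tested genes (higher in cKO) and 12.7% (lower in cKO). The 9 were Ndufa13 of complex I, Sdhb and Sdhd of complex II, Cox6a1, Cox6b2 and Cox8a of complex IV, and Atp5a1, Atp5b and Atp5h of complex V. Without Cox6b2 they were 8 of 75, or 10.7%. Complex III had none. By median log2 difference the complexes stood at 0.0072 (I, 36 tested), 0.12 (II, 4 tested), 0.0071 (III, 8 tested), 0.026 (IV, 12 tested) and 0.070 (V, 16 tested). None of the 5 held a gene that passed the limma test. The median over all members was -0.020 without cKO replicate 3 and -0.025 without floxed replicate 2, so its sign rests on each of these libraries. The medians of complexes I, III, IV and V also changed sign when 1 library was left out.

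**Figure D2:**
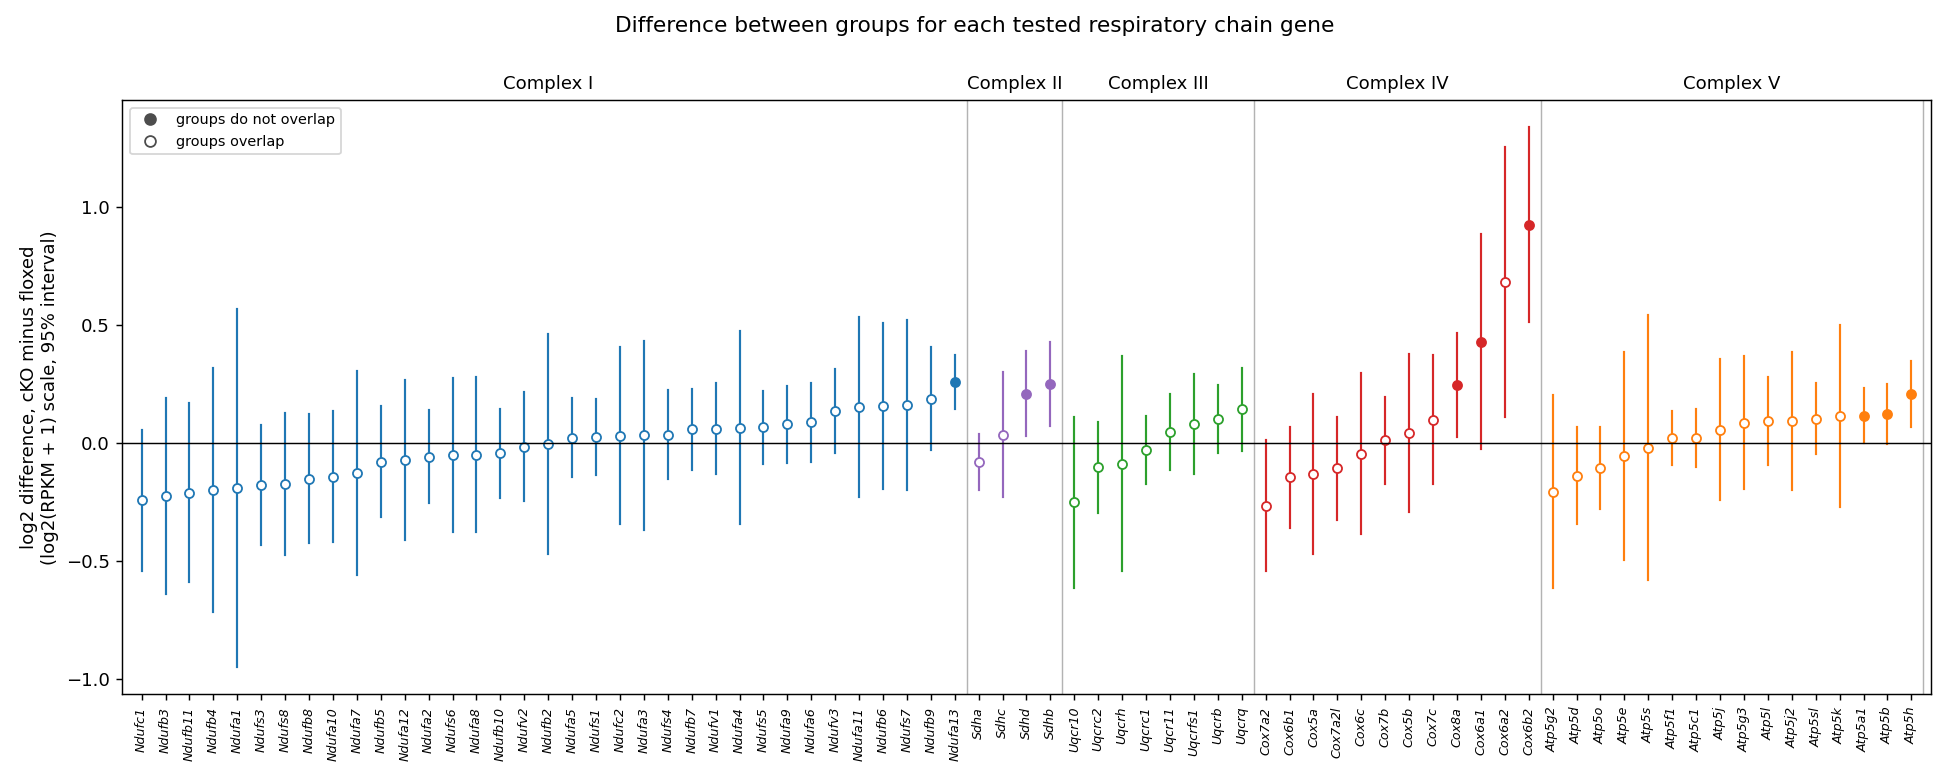
Log2 difference (cKO minus floxed, from log2(RPKM + 1)) with its 95% interval for 75 of the 76 tested members, by complex, with filled points where the groups do not overlap. Most points lie near 0, and Cox6b2 at 0.92 is the highest.

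Complex V was the one complex whose summed level lay apart between the groups. Its 17 members summed to 890.6, 888.7 and 925 RPKM in cKO libraries, against 819, 831 and 853 RPKM in floxed libraries. All cKO sums were higher, and the means were 901 ± 20.4 and 834 ± 17.3 RPKM (SD, n = 3 each), which puts cKO at 108% of floxed. Without Atp5h the sums were 613, 608 and 632 RPKM in cKO and 592, 574 and 598 RPKM in floxed libraries. These too did not overlap, and the log2 ratio of the means was 0.070 without Atp5h and 0.11 with it. Without Atp5h, Atp5a1 and Atp5b, the members whose own groups lay apart, the other 14 summed to 312, 304 and 335 RPKM in cKO and 330.3, 288 and 314 RPKM in floxed libraries, which overlapped. No p was computed for the sums. Complexes I to IV overlapped in sum. Complex I summed to 887 ± 42.4 RPKM in cKO and 876 ± 53.6 RPKM in floxed libraries, complex III to 449.6 ± 31.2 and 442 ± 32.1 RPKM, and complex IV to 393 ± 29.2 and 382 ± 23.6 RPKM.

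**Figure D3:**
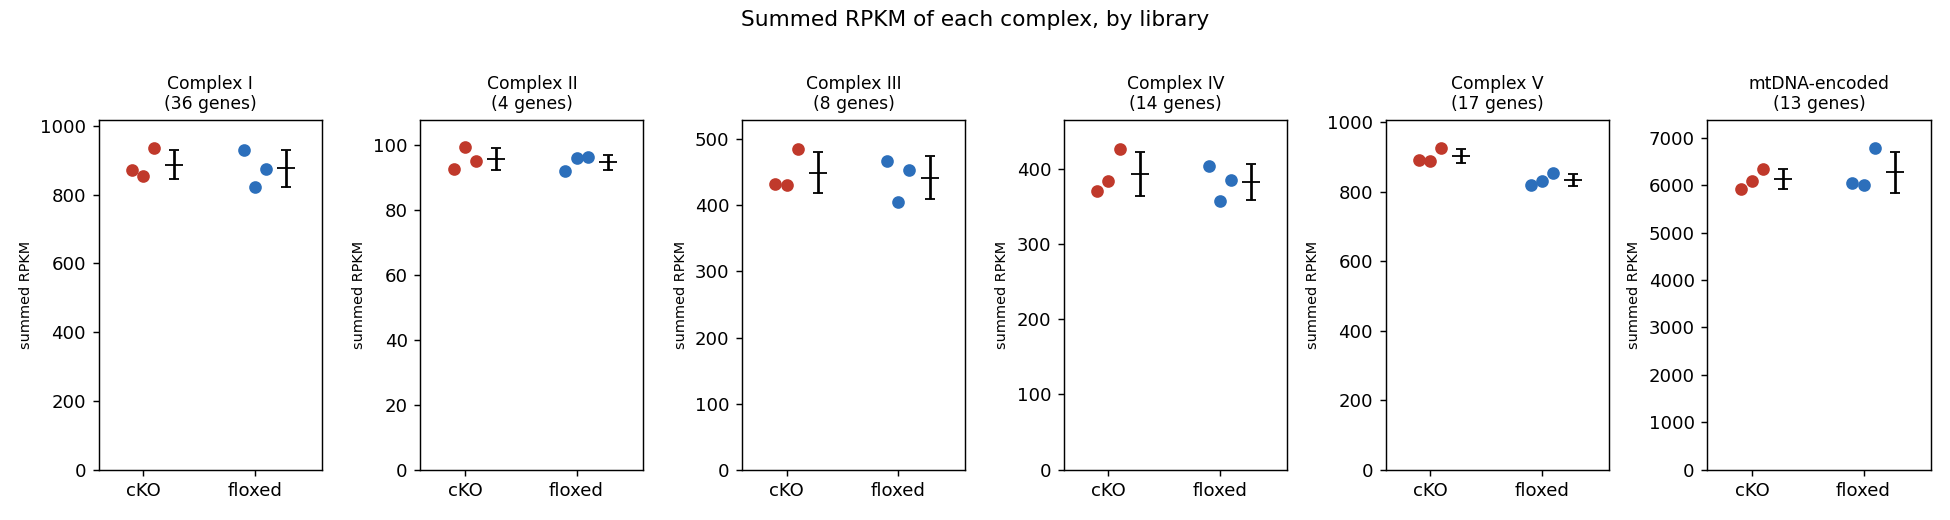
Summed RPKM of the members of each complex and of the 13 genes encoded by mitochondrial DNA, by library (points) with mean and SD (n = 3 per group), cKO left of floxed. The complex V sums are 889 to 925 RPKM in cKO and 819 to 853 RPKM in floxed libraries, and the other 5 panels overlap.

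Atp5h, the most abundant member, encodes subunit d of the peripheral stalk, which holds the catalytic head of the ATP synthase in place. It was at 278, 281 and 293 RPKM in cKO libraries, against 227, 258 and 255 RPKM in floxed libraries. The lowest cKO library stood above the highest floxed library. The log2 difference was 0.21 (SE 0.06, 95% interval 0.07 to 0.34), with an adjusted p of 0.191 in limma (Benjamini-Hochberg) and 0.0129 in voom, and a range of 0.0129 to 0.385 over 14 alternatives. It rested on 7223 to 9486 reads per library, and 47.9% of the 50-base stretches of its transcripts also occur in transcripts of other genes, so its reads may be shared with copies.

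Atp5a1 and Atp5b encode the alpha and beta subunits that form the catalytic head, beta being the catalytic one. Atp5a1 was at 158, 156 and 146 RPKM in cKO libraries, against 135, 144 and 145 RPKM in floxed libraries. Atp5b was at 143, 148 and 151 RPKM in cKO libraries, against 126, 141 and 139 RPKM in floxed libraries. Both were apart by narrow gaps, and neither passed (log2 differences of 0.12 each, adjusted p = 0.358 and 0.377 in limma with Benjamini-Hochberg adjustment).

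Atp5g1, Atp5g2 and Atp5g3 encode the same mature c subunit, the proton-carrying ring, from separate genes. Atp5g3 was the most abundant, at 11.0, 12.9 and 13.3 RPKM in cKO libraries and 12.5, 9.76 and 12.7 RPKM in floxed libraries (log2 difference 0.086, adjusted p = 0.812, limma). Atp5g2 was at 5.45, 6.11 and 7.39 RPKM in cKO and 7.48, 5.78 and 9.30 RPKM in floxed libraries (-0.21, adjusted p = 0.662), and Atp5g1 was below 1 RPKM throughout. The groups overlapped for all 3 genes. Atp5g3 made up 63.2, 64.9 and 61.5% of the summed level of the 3 genes in cKO libraries, against 59.9, 60.2 and 56.3% in floxed libraries. Atp5g2 made up 31.3, 30.8 and 34.2% in cKO libraries, against 35.8, 35.6 and 41.1% in floxed libraries. As shares the groups did not overlap, Atp5g3 being higher and Atp5g2 lower in cKO. Of the 50-base stretches of Atp5g2 transcripts, 87.4% also occur in other genes, which limits its share. The other 11 complex V members had differences of -0.14 to 0.12, and their groups overlapped. Atp5s and Atp5sl, counted here by symbol, are not subunits of the ATP synthase.

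In complex I, Ndufa13 was the one member whose groups did not overlap. It encodes an accessory subunit also known as GRIM-19, and lies on chromosome 8 from 69894180 to 69902558 on the minus strand (mm10). It was at 68.4, 62.5 and 65.1 RPKM in cKO libraries, against 54.3, 55.7 and 53.6 RPKM in floxed libraries. The gap between the groups was wider than the range of the floxed group. The means were 65.3 ± 2.95 and 54.5 ± 1.09 RPKM (SD, n = 3 each). The log2 difference of 0.26 (SE 0.05, 95% interval 0.14 to 0.37) missed the threshold in limma (adjusted p = 0.0701, Benjamini-Hochberg) and passed in voom (0.0470), with a range of 0.0420 to 0.228 over 14 alternatives. Of its exon bases, 30.0% are shared with Tssk6 on the other strand. Tssk6 itself was at 0.750 ± 0.353 RPKM in cKO and 0.557 ± 0.380 RPKM in floxed libraries.

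Ndufb9, an accessory subunit of the membrane arm, was at 39.8, 39.5 and 47.5 RPKM in cKO and 39.8, 34.0 and 37.1 RPKM in floxed libraries (0.19, adjusted p = 0.427, limma). Its groups overlapped, and cKO replicate 3 alone was clear of the rest. The most abundant complex I genes, Ndufa6 and Ndufa2, had values of 67.2 to 78.0 and 65.6 to 72.0 RPKM for Ndufa6 and 59.8 to 70.8 and 61.9 to 71.2 RPKM for Ndufa2 in cKO and floxed libraries, and both overlapped (0.086 and -0.059). Ndufa4, named for complex I but a subunit of complex IV, was at 7.81, 9.81 and 8.83 RPKM in cKO and 7.20, 7.22 and 11.2 RPKM in floxed libraries (0.063, adjusted p = 0.913, limma). Of the remaining complex I members, 30 had differences of -0.24 to 0.16, and none had an adjusted p below 0.453.

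In complex II, the groups lay apart for Sdhb and Sdhd, and overlapped for Sdhc and Sdha. Sdhb, the iron-sulphur subunit shown with its promoter above, was at 11.5, 12.9 and 12.8 RPKM in cKO libraries, against 10.7, 10.6 and 9.54 RPKM in floxed libraries. Sdhd, a membrane anchor, was at 15.8, 14.7 and 15.9 RPKM in cKO libraries, against 12.1, 14.1 and 13.7 RPKM in floxed libraries. Neither gene's groups overlapped, and neither passed the test (log2 differences of 0.25 and 0.21, adjusted p = 0.210 and 0.293 in limma with Benjamini-Hochberg adjustment). Sdhc, the other membrane anchor, was at 6.12, 7.62 and 7.22 RPKM in cKO libraries, against 7.03, 5.95 and 7.42 RPKM in floxed libraries (0.034). Sdha, the flavoprotein that takes electrons from succinate and the most abundant of the 4, was at 59.3, 64.1 and 59.2 RPKM in cKO libraries, against 62.3, 65.3 and 65.6 RPKM in floxed libraries (-0.081, adjusted p = 0.542). The summed level of the complex, to which Sdha gives the most, was 95.8 ± 3.35 RPKM in cKO and 94.8 ± 2.35 RPKM in floxed libraries. Without Sdha the sums were 33.5, 35.2 and 35.9 RPKM in cKO and 29.8, 30.7 and 30.7 RPKM in floxed libraries, which did not overlap.

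In complex III no gene's groups lay apart. Uqcrb, a small subunit bound near the ubiquinone site and the second most abundant member of all, was at 196, 205 and 220.2 RPKM in cKO libraries, against 193, 183 and 203 RPKM in floxed libraries. The groups overlapped, and 43.2% of the 50-base stretches of its transcripts also occur in other genes. Uqcrh, the acidic hinge subunit near cytochrome c1, was at 80.0, 77.7 and 108 RPKM in cKO libraries, against 109.7, 71.6 and 103 RPKM in floxed libraries. Its spread within each group, with SDs of 16.9 and 20.4 RPKM, was larger than the difference of the means (88.6 and 94.8 RPKM). Uqcrq was at 15.2, 13.9 and 13.1 RPKM in cKO and 13.3, 12.1 and 12.5 RPKM in floxed libraries, and Uqcr10 at 14.3, 12.1 and 11.3 RPKM in cKO and 18.1, 12.1 and 15.7 RPKM in floxed libraries. Their differences were 0.14 for Uqcrq (0.088 without cKO replicate 1) and -0.25 for Uqcr10 (-0.13 without floxed replicate 1 and -0.40 without floxed replicate 2), and the adjusted p was 0.464 or more for each gene of the complex (limma, Benjamini-Hochberg).

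Complex IV held the member with the largest difference, Cox6b2, which encodes a testis-restricted form of an intermembrane-space subunit. It lies on chromosome 7 from 4751792 to 4753094 on the minus strand (mm10), and shares no exon base with another gene. It was at 1.29, 1.45 and 1.23 RPKM in cKO libraries, against 0.166, 0.448 and 0.0834 RPKM in floxed libraries. The groups lay far apart, on 32, 34 and 30 reads in cKO and 4, 10 and 2 reads in floxed libraries. The log2 difference was 0.92 (SE 0.17, 95% interval 0.51 to 1.34) from log2(RPKM + 1). The added 1 RPKM damps the change of so low a gene, and the voom estimate, from reads, was 2.69. Its adjusted p was 0.0699 in limma (Benjamini-Hochberg) and 0.0320 in voom, with a range of 0.0320 to 0.180 over the 10 alternatives that tested it. These p-values carry the limit given above, that the gene passed the filter through cKO libraries alone.

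The common form, Cox6b1, was at 31.2, 36.4 and 39.4 RPKM in cKO libraries, against 39.0, 37.9 and 41.5 RPKM in floxed libraries (-0.15, adjusted p = 0.537, limma). Its groups overlapped. Cox6b2 made up 3.97, 3.84 and 3.02% of the summed level of the pair in cKO libraries, against 0.425, 1.17 and 0.201% in floxed libraries. The testis form stayed a small part of the pair in every library.

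Cox6a1 and Cox6a2 encode the general and the heart and skeletal muscle form of another subunit. Cox6a2 was at 8.13, 4.53 and 9.0 RPKM in cKO libraries, against 4.06, 3.21 and 4.76 RPKM in floxed libraries. Cox6a1 was at 15.1, 14.6 and 24.3 RPKM in cKO libraries, against 13.9, 11.5 and 13.0 RPKM in floxed libraries. Cox6a2 overlapped through cKO replicate 2 (log2 difference 0.68, adjusted p = 0.283, limma), while Cox6a1 did not overlap but was drawn up by cKO replicate 3 (0.43, or 0.20 without it, adjusted p = 0.384, limma). Cox6a2 made up 35.0, 23.7 and 27.0% of the pair in cKO libraries, against 22.6, 21.9 and 26.7% in floxed libraries, which overlapped. Of its exon bases, 10.3% are shared with Itgad on the other strand, which was at 4.41 ± 0.660 RPKM in cKO and 3.55 ± 0.113 RPKM in floxed libraries.

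Cox8a, the general form of the smallest subunit, was at 33.8, 39.5 and 30.8 RPKM in cKO libraries, against 30.1, 28.8 and 28.2 RPKM in floxed libraries. The groups lay apart by a narrow gap, and the difference of 0.24 (0.15 without cKO replicate 2) did not pass (adjusted p = 0.309, limma with Benjamini-Hochberg adjustment). The muscle form Cox8b had 2 reads in floxed replicate 1 and none elsewhere. Cox7a2, the general form of a further subunit, was at 7.55, 5.77 and 5.52 RPKM in cKO libraries, against 7.95, 7.36 and 7.79 RPKM in floxed libraries (-0.27, adjusted p = 0.370). Its groups overlapped through cKO replicate 1. The related Cox7a2l, which takes part in joining complexes III and IV, was at 38.6 ± 4.23 RPKM in cKO and 41.6 ± 2.84 RPKM in floxed libraries, and the muscle form Cox7a1 lay at 0.0861 to 1.06 RPKM over all libraries. The abundant subunits Cox5b (88.5 ± 5.81 against 87.0 ± 17.6 RPKM) and Cox7b (76.9 ± 7.43 against 76.2 ± 3.37 RPKM) had near-equal means. Of the muscle and testis forms, then, Cox6a2 was at 3.21 to 9.0 RPKM over all libraries. Cox6b2 (0.0834 to 1.45 RPKM) and Cox7a1 (0.0861 to 1.06 RPKM) were both read in every library but low, and Cox8b was near 0.

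**Figure D4:**
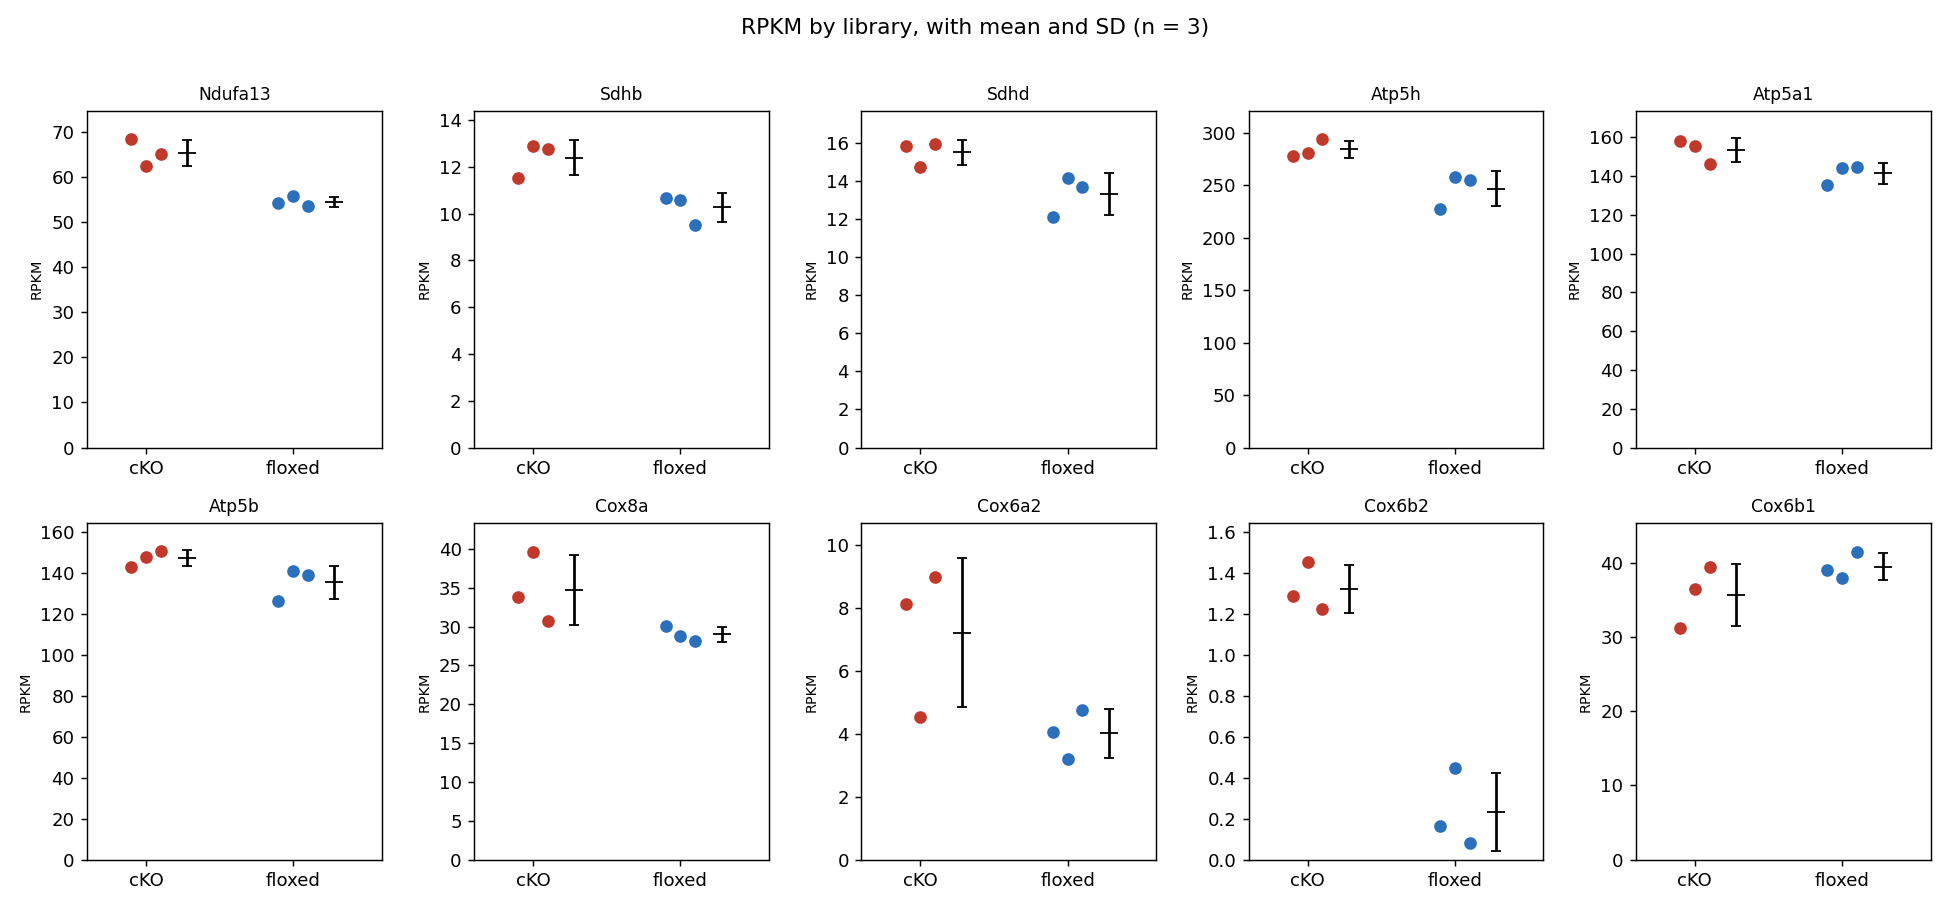
RPKM by library (points) with mean and SD (n = 3 per group) for 10 members named in the text, cKO left of floxed and each axis starting at 0. Ndufa13, Sdhb, Sdhd, Atp5h, Atp5a1, Atp5b, Cox8a and Cox6b2 have all cKO points above all floxed points, and Cox6a2 and Cox6b1 overlap.

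The genes encoded by mitochondrial DNA, the partners of these subunits, showed no call either. The 13 summed to 5921, 6096 and 6346 RPKM in cKO libraries, against 6035, 5995 and 6773 RPKM in floxed libraries. The sums overlapped, with means of 6121 ± 214 and 6268 ± 438 RPKM (SD, n = 3 each). The most abundant, mt-Co1 of complex IV, was at 1197 ± 10.4 RPKM in cKO and 1244 ± 75.3 RPKM in floxed libraries (adjusted p = 0.710, limma). The neighbours mt-Co2, mt-Atp8, mt-Atp6, mt-Co3 and mt-Nd3 were at 1.01 to 28.2 RPKM in every library, whereas the other 8 were at 485 to 1292 RPKM. The low genes lie side by side on the plus strand, from base 7013 to 9806. Sequence shared with other genes was not examined for them, so their values may not give the amount of their RNA. The sum of the 13 rests almost wholly on the other 8.

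In 10 lists of mitochondrial genes outside the 79 members, 252 of 268 genes found were tested and 0 passed in limma in either direction. The lists held the mitochondrially encoded genes, chain subunits and carriers that the symbol rule does not match, assembly factors of complex I and of the other complexes, coenzyme Q synthesis, the tricarboxylic acid cycle, expression of mitochondrial DNA, mitochondrial ribosomal proteins, protein import, and carriers with antioxidant enzymes. At an unadjusted p under 0.05, 5 were higher and 19 lower, and groups lay apart for 7 higher and 28 lower. Over all tested genes these shares were 5.55% higher and 8.60% lower, and 7.61% and 12.7% apart. The median log2 difference of the 252 was -0.033. Over all tested genes, voom called 1.78% higher and 2.41% lower. Voom called 1 of the 252 higher, the antioxidant enzyme gene Gpx4 (34.7 ± 3.52 RPKM in cKO and 27.3 ± 1.04 RPKM in floxed libraries). It called 3 lower. These were the chaperone gene Hspd1 (87.2 ± 0.408 and 100.8 ± 3.27 RPKM) and Tomm34 (20.9 ± 0.889 and 25.3 ± 1.15 RPKM), both from the import list, and the complex I assembly factor gene Tmem126b (4.06 ± 0.244 and 5.65 ± 0.906 RPKM).

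By list, the median log2 difference was -0.057 for the 15 tested complex I assembly factors, 0.022 for the 33 other assembly factors and -0.049 for the 14 unmatched subunits and carriers. It was -0.063 for the 78 mitochondrial ribosomal proteins, -0.049 for the 32 import genes, -0.054 for the 13 mitochondrially encoded genes and -0.031 for the 23 genes of mitochondrial DNA expression and biogenesis. For coenzyme Q synthesis (8 tested) it was -0.016, for the tricarboxylic acid cycle (23 tested) 0.0098, and for carriers and antioxidant enzymes (13 tested) 0.010. Cox4i1, the common form of the complex IV subunit that the symbol rule misses, was at 72.4 ± 1.04 RPKM in cKO and 73.3 ± 1.67 RPKM in floxed libraries, and Cyc1, cytochrome c1 of complex III, at 14.0 ± 1.87 and 13.1 ± 1.09 RPKM. Of 88 tested cytosolic ribosomal protein genes, 2 were higher (Rps14 and Rps27) and 0 lower in cKO in limma, where 0.652% of all tested genes were higher and 0.668% lower, with a median of 0.030. Voom called 10 of the 88 higher and 1 lower, where it called 1.78% of all tested genes higher and 2.41% lower. Rps14 was at 272 ± 8.03 RPKM in cKO and 224 ± 5.30 RPKM in floxed libraries, and Rps27 at 304 ± 18.8 and 239 ± 9.59 RPKM (adjusted p = 0.0308 and 0.0499, limma).

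The 3 X-linked members can be set beside a difference in sex-linked RNA between the groups. Xist, the RNA of the inactive X chromosome, was at 9.43 ± 0.394 RPKM in cKO and 31.9 ± 3.16 RPKM in floxed libraries, and the Y-linked gene Ddx3y at 20.8 ± 0.438 and 10.4 ± 0.498 RPKM. Both were read in every library. This difference goes with the group for all members, X-linked or not, so its part in their differences cannot be told apart from that of the genotype. Ndufa1 was at 20.4, 16.3 and 37.0 RPKM in cKO libraries, against 35.2, 20.1 and 26.5 RPKM in floxed libraries. Ndufb11, an accessory subunit of complex I like Ndufa1, was at 16.8, 13.9 and 12.3 RPKM in cKO libraries, against 20.3, 13.8 and 16.3 RPKM in floxed libraries. Both overlapped and neither passed (-0.19 and -0.21, adjusted p = 0.844 and 0.627, limma), and the same held for Cox7b at 0.0096 (adjusted p = 0.971).

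The members also varied between libraries of the same group. Each value was taken as its deviation from the gene's mean over the 6 libraries, as log2(RPKM + 1). The median deviation of the 76 members was 0.093 in cKO replicate 3 and -0.083 in floxed replicate 2, and between -0.028 and 0.032 in the other 4 libraries. Over all tested genes the medians were between -0.012 and 0.020 in every library. In cKO replicate 3, 69.7% of members lay above their own mean, and in floxed replicate 2, 22.4%, against 47.7 and 55.8% of all tested genes in the same libraries. Cytosolic ribosomal protein genes were also low in floxed replicate 2, with a median of -0.10, and in cKO replicate 3 stood at 0.024. In the same order, the mitochondrially encoded genes stood at -0.092 and 0.052. The chain subunits and carriers that the symbol rule does not match stood at 0.0044 and 0.076, and mitochondrial ribosomal proteins at -0.0011 and -0.012. Within groups, the median SD of a member was 0.13 in cKO and 0.13 in floxed libraries, against 0.11 and 0.12 over all tested genes. Whether these 2 libraries differ in their cells or in their preparation cannot be told apart.

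**Figure D5:**
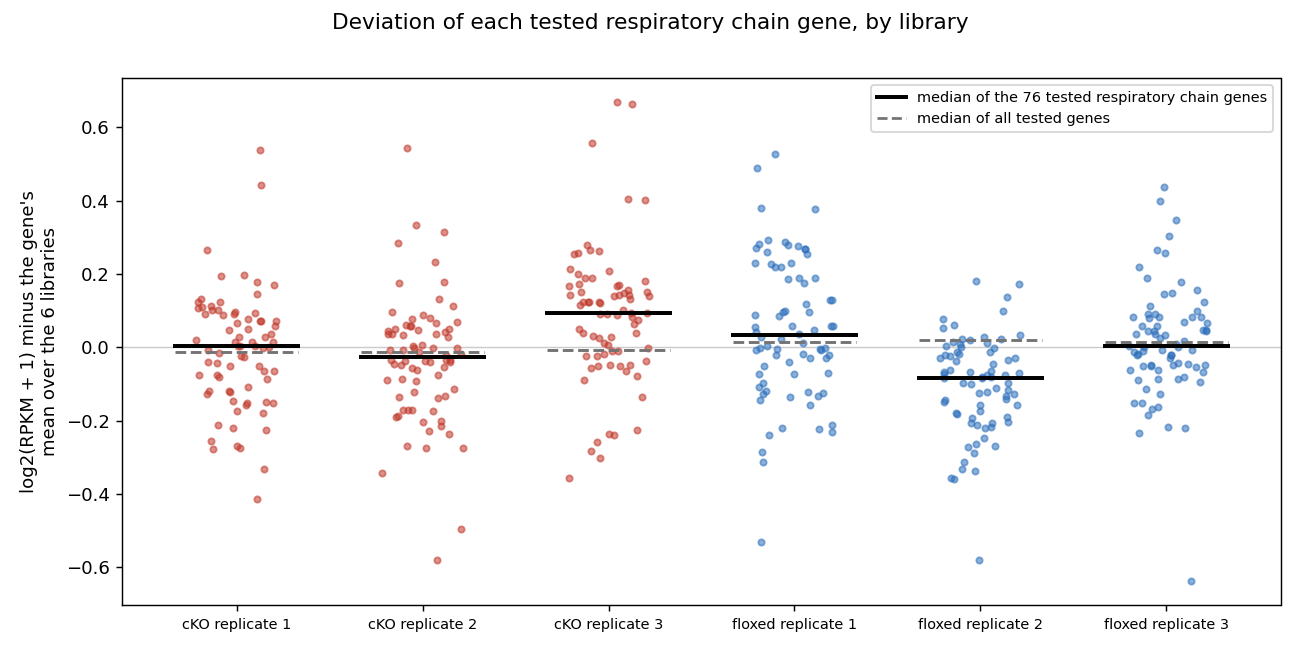
Deviation of each tested member from its own mean over the 6 libraries (log2(RPKM + 1)), by library, with the median of the 76 members as a solid bar and that of all tested genes as a dashed bar. The solid bar is at 0.093 in cKO replicate 3 and -0.083 in floxed replicate 2, while the dashed bars stay near 0.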

How the data were processed

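Stranded mRNA libraries were made from TRIzol-extracted RNA, per the labels' protocols. Per the submitters' processing notes, the build was mm10 and the tools were edgeR 3.12.1, Subread 1.5.1, featureCounts and STAR 2.5.3a. Their roles and the strand, duplicate and annotation settings were not given in the sources used here. As deposited by the authors, RPKM is listed per gene and library, with exon coordinates and gene lengths.

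Reads were recovered as RPKM times gene length, scaled by a library depth that was inferred from the smallest step between values in that library. This gave whole reads for 100% of values (tolerance 0.001 reads), and the reads summed to 20152146 to 22440170 per library. The main test was limma 3.58.1 in R 4.3.3 (lmFit, then eBayes with trend) fitted to log2(RPKM + 1) over all 6 libraries, without covariates. It was run on the 12731 genes that reached 1 RPKM in 3 or more libraries. A gene passed at a two-sided Benjamini-Hochberg adjusted p under 0.05, adjusted over all tested genes. A log2 difference is cKO minus floxed, and understates the change of low genes. The scripts were tested on simulated data.

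Members and lists were chosen with earlier results of these data known. The text names, in each complex, the 3 tested members with the smallest p, the 2 with the highest mean, and the isoform sets of the Cox6a, Cox6b, Cox7a, Cox8, Atp5g and Ndufa4 genes. Of these, 1 gene of complex I is not reported here, though it enters the counts and sums. Sdhc, Ndufa1, Ndufb11 and Atp5l were added after their values were seen, as was the list of genes that voom called.

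Alternatives were a pseudocount of 0.1, no filter, a filter at 5 RPKM, median centring, quantile normalization, voom on recovered reads, no trend, a replicate block and each library left out. Promoters were RefSeq windows of GRCm38.p6. Exon overlaps came from the deposited coordinates, and 50-base stretches shared between genes and principal transcripts from GENCODE M21. Tables were joined with Python 3.11.15, pandas 2.3.3 and numpy 2.4.6.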

Additional observations from a re-analysis of the deposited data

How the results depend on the processing

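The count of members lower in cKO was 0 under every alternative run. The count higher was 0 in the main test, 3 with voom (1 each in complexes I, IV and V), and 1 with a filter at 5 RPKM (complex I), with median centring (complex I) and without the mean-variance trend (complex IV). It was 0 with a replicate block, with a pseudocount of 0.1, with no filter, with quantile normalization and without any single library. Over all genes, 83 higher and 85 lower became 44 and 36 with no filter, 226 and 307 with voom, 39 and 35 without the trend, and 37 and 23 with the replicate block. Median centring gave 124 higher and 71 lower. Leaving out 1 library gave 33 to 51 higher and 27 to 39 lower. The median then ran from -0.069 to 0.042 for complex I, -0.027 to 0.049 for complex III, -0.063 to 0.078 for complex IV and -0.017 to 0.094 for complex V, each changing sign. Without the most abundant member, the log2 ratio of the summed level was 0.20 for complex II (0.014 with it) and 0.070 for complex V (0.11 with it). Without the 3 complex V members whose groups do not overlap, a choice made after seeing the data, it was 0.027.

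Directions changed for genes close to 0. Cox7b was -0.0051 after quantile normalization. Leaving out 1 library gave ranges of -0.28 to 0.027 for Uqcrh, -0.10 to 0.19 for Cox5b, -0.050 to 0.087 for Cox7b, -0.028 to 0.16 for Atp5g3 and -0.033 to 0.25 for Ndufa4. The cause of these changes was not tested. Alternatives chosen after seeing the data, without members under 50 reads in a library (73 left) or sharing exon bases (54 left), gave medians of 0.024 and 0.034.

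Same-numbered libraries had correlations of deviations of -0.032, 0.013 and 0.044, and cKO replicates 1 and 3 correlated best with another number. Values this near 0, from so few libraries, cannot decide whether the numbers pair the libraries, and the labels do not say. With 3 libraries a group, members had a median 95% half-width of 0.25 on the log2 scale. Depth limits the lowest members, Cox6b2 with 2 to 34 reads and Cox7a1 with 1 to 12 reads in a library.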
